A study of Homo sapiens with 23 samples.

Results

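The 52 genes described here encode the machinery that copies DNA in S phase and the factors that start it: origin licensing, helicase, polymerase, nucleotide supply, fork protection, chromatin assembly and E2F genes. The members are taken by gene name from a list, with no measured value in the rule, and all 52 have a row among the 21463 of the deposited table. The cells are PC-3, an established human line from a bone metastasis of prostate cancer. They carry a lentiviral PARG cDNA, joined to the fluorescent protein mClover3 by a cleavable link, behind the TetOne doxycycline-inducible promoter, and each of the lines I4 and H6 is a single clone of such cells. PARG degrades the poly(ADP-ribose) chains that PARP enzymes attach to proteins. The treated groups were grown for 72 h with 500 ng/ml doxycycline: I4 in experiment N, I4 in experiment B, H6 in experiment N and H6 in experiment B. Each had a group of the same clone and experiment grown for 72 h without doxycycline, which carries the construct as well. Groups held 3 wells of a 6-well plate each, except untreated H6 in experiment B with 2, giving 23 libraries in 8 groups. The cells of experiment N were at passage 5 and their libraries do not record the strand of origin. Those of experiment B were at passage 7, and another centre made and sequenced libraries that do record it. No cells lacking the construct are analysed here, so PARG and doxycycline as such cannot be told apart as sources of a difference.

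DNA replication begins when the origin recognition complex, CDC6 and CDT1 load the MCM2 to MCM7 ring onto DNA in G1. At the start of S phase CDC45, the GINS complex and MCM10 turn that ring into the active helicase, primase and polymerase alpha lay the first primers, and polymerases delta and epsilon extend them on the PCNA clamp. E2F transcription factors switch on most of these genes near the G1/S boundary. They are freed when the retinoblastoma protein is inactivated, to which cyclin E and its kinase contribute. The comparison in each clone and experiment asks how transcripts of these steps differ when PARG is induced.

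Each comparison in the authors' deposited table lists whichever group mean was higher, in RPKM (reads scaled to exon length and to library depth), with a signed fold and an adjusted p, printed here as q. The level of the other group was obtained by dividing that mean by the fold and is called implied. In every pair of levels below the lower one is implied, whether or not it is marked so. Implied levels are approximate if the authors' fold is not a ratio of the group means. No values per library were analysed here, so no SD can be given, and a q-value speaks at best for the variation of wells within that clone. The files do not state the direction of the fold: it was read from PARG, which has a positive fold in all 4 comparisons and was taken as induced. In clone I4 the authors' deposited table has PARG 1.35-fold (experiment N) and 1.40-fold (experiment B) higher with doxycycline, and in clone H6 2.15-fold (N) and 1.99-fold (B) higher. A gene is called at q under 0.05. Genes of very low level put the depth at about 33.7 to 43.3 M reads per library in experiment N and 19.2 to 26.5 M in experiment B. The PC-3 label was checked on markers: in the authors' deposited table the keratin gene KRT18 lay at 101.2 to 127.1 RPKM, while KLK3, low in this line, reached at most 0.00695 RPKM and KLK2 was listed at 0, and the epithelial cadherin gene CDH1 was low (0.332 to 0.394 RPKM). Of 12 fibroblast and blood cell markers, only COL1A1 reached 1 RPKM (6.23 to 17.7 RPKM in the authors' deposited table). Of the 6 fibroblast markers 1 was called higher in I4 in experiment N and 1 higher and 1 lower in H6 in experiment N, and of the 6 blood cell markers none was called. Of the 7 markers of the PC-3 line itself, 2 (N) and 3 (B) were called higher in I4 and 5 (N) and 3 (B) in H6, with KRT8 and KRT18 higher in all 4 comparisons, and 1 was called lower, in I4 in experiment B. The part of these markers in the results below was not tested.

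Every replication gene that was called was lower with doxycycline, by 1.59-fold at most, and none was called higher in any comparison. According to the authors' deposited table, 20 of 52 were called lower in I4 in experiment N (38.5%), against 12.5% of all genes of at least 1 RPKM and 8.53% of all genes tested. In I4 in experiment B the authors' deposited table calls 19 lower (36.5%), against 9.14% of genes of at least 1 RPKM and 6.59% of all tested. In H6 it was 15 in experiment N (28.8%, with backgrounds of 10.5% and 7.07%) and 9 in experiment B (17.3%, with backgrounds of 5.46% and 3.93%) of the authors' deposited table. All 52 members reached 1 RPKM in every comparison, so the background at that level is the closer one. Calls in the upward direction were made for 10.3% (experiment N) and 10.3% (experiment B) of genes of at least 1 RPKM in I4, and for 9.87% (N) and 5.03% (B) in H6 of the authors' deposited table. Over all genes tested these shares were 7.18% (N) and 7.46% (B) for I4, and 6.57% (N) and 3.63% (B) for H6.

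Most of the folds pointed down even where they were not called. The median log2 fold of the 52 genes was -0.18 (experiment N) and -0.17 (experiment B) in I4 and -0.14 (N) and -0.15 (B) in H6 of the authors' deposited table, while the median over every gene that reached 1 RPKM was between -0.01 and 0.01. The fold was negative for 44 and 49 of the 52 in I4 and for 47 in each H6 comparison, against 48.2% to 51.7% of all genes of at least 1 RPKM in the authors' deposited table. Of the 52 genes, 39 had a negative fold in all 4 comparisons, and RFC1 alone had a positive fold in all 4. The share of all genes with the same sign in all 4 was not computed, so these counts have no background. Counted by gene, 6 of the 52 were called lower in all 4, 5 in 3, 5 in 2, 14 in 1 and 22 in none. For calls in all 4, the background was 2.68% lower and 2.31% higher among genes of at least 1 RPKM. Among all genes tested it was 1.97% lower and 1.73% higher. No background was computed for calls in 3, 2 or 1 comparisons or in none. The members and lists were chosen with earlier results of these data known, so these counts are descriptions and the list as a whole was given no test.

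**Figure D1:**
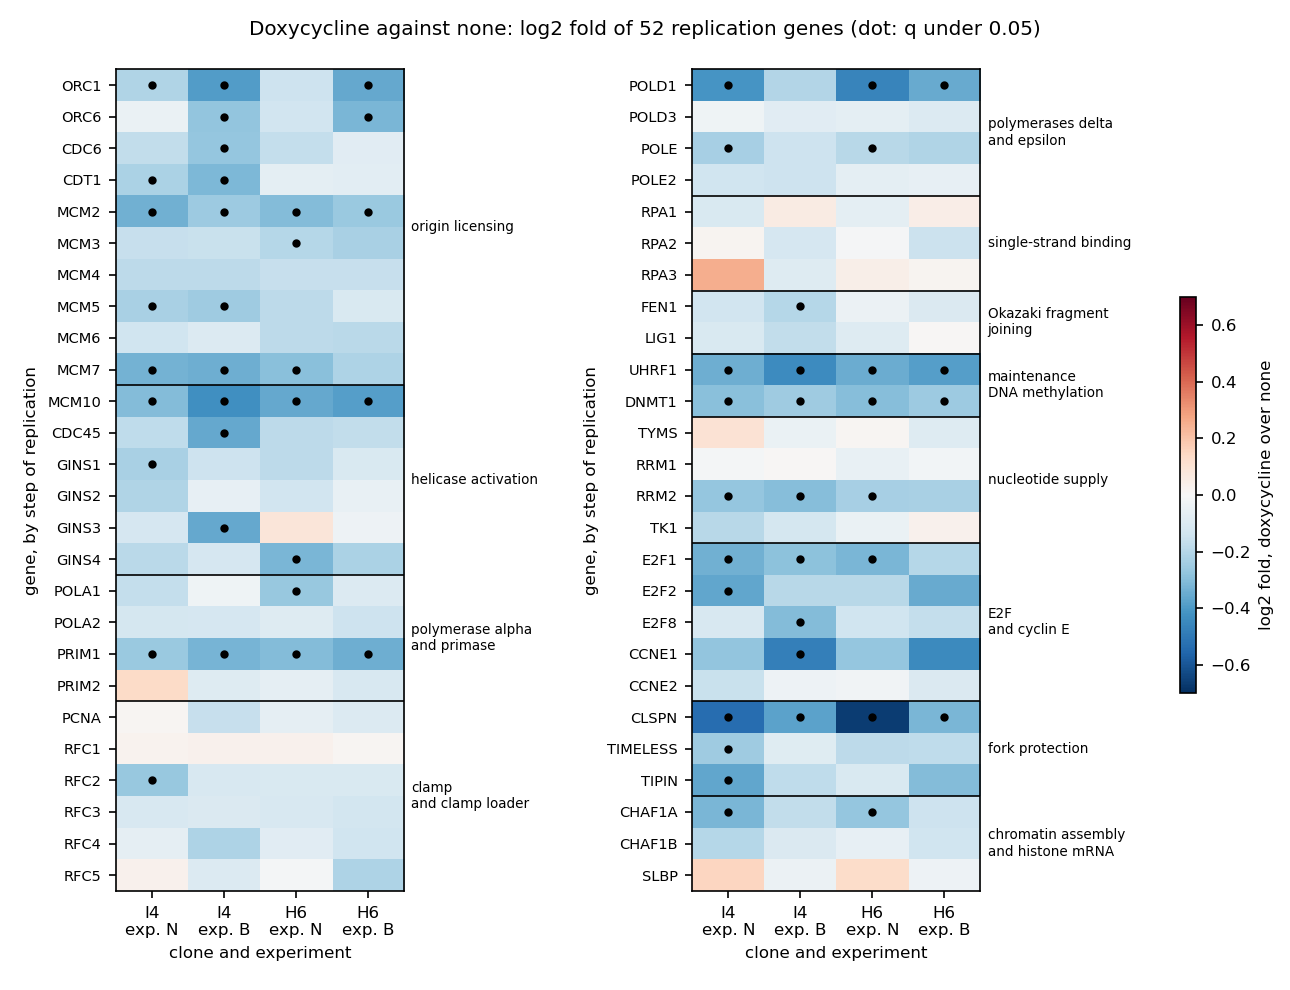
Log2 fold of each of the 52 genes (rows, grouped by step of replication) in the 4 comparisons of doxycycline against none (columns, clone and experiment). Blue is lower and red higher with doxycycline, and a dot marks a q under 0.05. The dots are all on blue cells, and the rows of UHRF1, DNMT1, MCM2, MCM10, PRIM1 and CLSPN carry a dot in every column.

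The 6 genes called lower in every comparison come from 5 of the 12 steps: MCM2 (licensing), MCM10 (helicase activation), PRIM1 (priming), UHRF1 and DNMT1 (maintenance methylation) and CLSPN (fork protection). The stretch around the start of each of these 6 genes is shown. E2F factors bind close to the start of many such genes, and the part of E2F binding in these folds was not tested. The sequences are from RefSeq on GRCh38.p14, run from 150 bases before the start to 30 bases into the transcript, and are written 5′ to 3′ on the gene's own strand. In the first 4, capitals mark matches to an E2F form, one of TTTCCCGC, TTTCGCGC, TTTGCCGC and TTTGGCGC on either strand, with overlapping matches joined. The CLSPN stretch is chr1:35769949-35770128 (minus strand), the UHRF1 stretch chr19:4909351-4909530 (plus strand, at the first of 3 listed starts), the MCM2 stretch chr3:127598261-127598440 (plus strand) and the DNMT1 stretch chr19:10194924-10195103 (minus strand).
CLSPN: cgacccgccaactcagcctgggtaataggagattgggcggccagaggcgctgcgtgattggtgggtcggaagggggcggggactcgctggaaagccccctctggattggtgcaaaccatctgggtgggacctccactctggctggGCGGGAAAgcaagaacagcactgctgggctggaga
UHRF1: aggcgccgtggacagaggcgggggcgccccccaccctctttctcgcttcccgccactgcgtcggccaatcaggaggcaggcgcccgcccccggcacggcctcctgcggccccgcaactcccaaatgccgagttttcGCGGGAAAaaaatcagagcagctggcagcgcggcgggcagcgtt
MCM2: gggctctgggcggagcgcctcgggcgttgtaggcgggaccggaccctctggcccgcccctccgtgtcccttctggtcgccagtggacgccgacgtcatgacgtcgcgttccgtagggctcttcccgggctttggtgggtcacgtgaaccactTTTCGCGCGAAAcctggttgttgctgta
DNMT1: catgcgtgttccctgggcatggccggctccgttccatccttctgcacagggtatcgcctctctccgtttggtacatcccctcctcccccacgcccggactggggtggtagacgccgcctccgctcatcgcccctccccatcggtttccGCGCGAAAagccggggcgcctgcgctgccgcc

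MCM10 (chr10:13161408-13161587, plus strand) and PRIM1 (chr12:56752294-56752473, minus strand) have no match to these E2F forms in their windows, which says only that those letters are not there. Capitals mark CCAAT boxes (CCAAT on either strand) in these. The stretches above hold CCAAT boxes as well, left unmarked there. They begin 119, 94 and 46 bases before the start in CLSPN and 86 bases before it in UHRF1.
MCM10: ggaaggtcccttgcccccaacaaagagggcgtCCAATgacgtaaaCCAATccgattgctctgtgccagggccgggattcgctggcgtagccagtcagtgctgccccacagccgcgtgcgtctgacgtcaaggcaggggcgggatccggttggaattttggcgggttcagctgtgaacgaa
PRIM1: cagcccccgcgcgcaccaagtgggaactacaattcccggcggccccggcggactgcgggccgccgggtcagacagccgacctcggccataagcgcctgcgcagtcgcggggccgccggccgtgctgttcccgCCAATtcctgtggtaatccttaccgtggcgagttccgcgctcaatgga

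The match in CLSPN begins 5 bases before the listed start, that in UHRF1 14 bases before it and that in DNMT1 2 bases before it, while in MCM2 it begins just inside the transcript.

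CLSPN encodes claspin, the adaptor through which the ATR kinase activates CHK1 at stalled forks, and it had the largest mean fall of the 52 genes. In the authors' deposited table its level was 7.70 RPKM with doxycycline (implied) and 11.2 RPKM without in I4 in experiment N, a 1.45-fold difference (q = 8.09e-06). In I4 in experiment B it was 13.5 against 17.5 RPKM in the authors' deposited table (1.296-fold lower, q = 7.06e-06). In H6 the authors' deposited table gives 6.08 against 9.65 RPKM in experiment N (1.59-fold lower, q listed as 0) and 11.7 against 14.6 RPKM in experiment B (1.25-fold lower, q = 0.00267). The treated group was the lower one in each pair, and the fold was larger in experiment N than in experiment B in both clones, a difference that was not tested. CLSPN (ENSG00000092853) is on the minus strand of chromosome 1 (35720218 to 35769967) (GENCODE release 29, GRCh38).

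Its partners in fork protection, TIMELESS and TIPIN, which travel with the helicase, were called lower in I4 in experiment N alone. In that comparison of the authors' deposited table TIMELESS was 1.19-fold lower (q = 0.00471) and TIPIN 1.29-fold lower (q = 0.0209). In the other comparisons of the authors' deposited table their folds ran from 1.06-fold to 1.13-fold lower for TIMELESS and from 1.08-fold to 1.23-fold lower for TIPIN, none called.

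UHRF1 and DNMT1, which restore CpG methylation on the new strand, were called lower throughout; their step had the lowest median of the 12, taken over each gene's mean log2 fold. UHRF1 recognises hemimethylated DNA and recruits DNMT1, the methyltransferase. By the authors' deposited table UHRF1 stood at 39.2 RPKM with doxycycline and 49.6 RPKM without in I4 in experiment N (1.27-fold lower, q = 1.21e-05). In experiment B it was 30.8 against 41.8 RPKM in I4 of the authors' deposited table (1.36-fold lower, q = 5.78e-09). The H6 values in the authors' deposited table were 34.3 against 43.7 RPKM in experiment N (1.27-fold lower, q = 1.02e-05) and 27.7 against 36.1 RPKM in experiment B (1.31-fold lower, q = 3.39e-05). The folds of UHRF1 span 1.27-fold to 1.36-fold and those of DNMT1, which had the higher level, 1.19-fold to 1.23-fold. For DNMT1 the authors' deposited table gives 56.0 against 68.7 RPKM in I4 in experiment N (1.23-fold lower, q = 0.000215) and 62.8 against 74.6 RPKM in experiment B (1.19-fold lower, q = 0.00342). In H6 the authors' deposited table gives 47.6 against 58.6 RPKM in experiment N (1.23-fold lower, q = 0.000234) and 58.6 against 69.9 RPKM in experiment B (1.19-fold lower, q = 0.0159). UHRF1 (ENSG00000276043) is on the plus strand of chromosome 19 (4903080 to 4962154), and DNMT1 (ENSG00000130816) is on the minus strand of the same chromosome (10133345 to 10231286).

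All 10 licensing genes had a negative fold in all 4 comparisons, and 8 were called lower in at least 1. The share of all genes that meet either rule was not computed, so these counts have no background. MCM2, a subunit of the hexameric ring, was called lower in each. MCM2 stood in the authors' deposited table at 24.5 RPKM with doxycycline and 30.9 RPKM without in I4 in experiment N (1.26-fold lower, q = 2.64e-05), and 20.9 against 25.0 RPKM in experiment B (1.19-fold lower, q = 0.00481). In H6 it was 23.5 against 29.03 RPKM in experiment N (1.24-fold lower, q = 0.000245) and 20.9 against 25.0 RPKM in experiment B (1.196-fold lower, q = 0.0236), as the authors' deposited table gives them. MCM2 (ENSG00000073111) is on the plus strand of chromosome 3 (127598223 to 127622436), and 23.6% of its exon bases are overlapped by exons of genes on the other strand, TPRA1 and AC023593.1. In the libraries of experiment N, which do not record the strand, reads of these cannot be told apart. For MCM7 this share is 8.94% (AP4M1), for FEN1 6.70%, for PRIM1 5.42% and for CLSPN 5.17%.

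MCM7, another ring subunit, was called lower in 3 comparisons: in the authors' deposited table it was 63.8 against 80.3 RPKM in I4 in experiment N (1.26-fold, q = 2.05e-05), 51.9 against 65.7 RPKM in I4 in experiment B (1.27-fold, q = 1.65e-05) and 54.2 against 66.3 RPKM in H6 in experiment N (1.22-fold, q = 0.000369). The remaining comparison, H6 in experiment B, had 49.9 RPKM with doxycycline and 58.1 RPKM without in the authors' deposited table (q = 0.0664). ORC1, an ATP-binding subunit of the origin recognition complex, missed the threshold in H6 in experiment N, where the authors' deposited table has 5.54 against 6.13 RPKM (q = 0.298). It was 1.16-fold lower in I4 in experiment N (6.65 against 7.70 RPKM, q = 0.0496), 1.31-fold lower in I4 in experiment B (8.65 against 11.4 RPKM, q = 2.67e-05) and 1.28-fold lower in H6 in experiment B (8.09 against 10.4 RPKM, q = 0.00245) in the authors' deposited table. MCM5 and the loading factor CDT1 were called lower in I4 alone, in both experiments, and ORC6 in experiment B alone, in both clones. The folds of the authors' deposited table there were 1.17-fold and 1.19-fold for MCM5, 1.16-fold and 1.24-fold for CDT1, and 1.21-fold and 1.25-fold for ORC6. CDC6 and MCM3 were called lower in a single comparison each, and MCM4 and MCM6 in none, where the authors' deposited table has them 1.07-fold to 1.14-fold lower.

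In helicase activation MCM10 was the gene called throughout. MCM10 helps the assembled helicase to start unwinding. For MCM10 the authors' deposited table gives 4.42 RPKM with doxycycline and 5.46 RPKM without in I4 in experiment N (1.23-fold lower, q = 0.00144), and 6.73 against 9.05 RPKM in experiment B (1.35-fold lower, q = 1.62e-06). In H6 it was 4.54 against 5.81 RPKM in experiment N (1.28-fold lower, q = 0.000112) and 6.35 against 8.30 RPKM in experiment B (1.31-fold lower, q = 0.000489) in the authors' deposited table. MCM10 (ENSG00000065328) is on the plus strand of chromosome 10 (13161554 to 13211104). CDC45, GINS1, GINS3 and GINS4, the other parts of the active helicase, were each called lower in a single comparison, and GINS2 in none. CDC45 and GINS3 were called in I4 in experiment B (1.28-fold lower each in the authors' deposited table), GINS1 in I4 in experiment N (1.17-fold lower) and GINS4 in H6 in experiment N (1.25-fold lower). GINS4 has 23.6% of its exon bases overlapped by AC009630.1 and AC009630.2 on the other strand, and its only call is in the experiment whose libraries do not record the strand. For GINS3 that share is 10.9%. GINS3 stood at a 1.06-fold higher value in H6 in experiment N of the authors' deposited table (q = 0.723).

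Of the priming enzymes, PRIM1, the catalytic subunit of primase, was called lower in all 4. Its levels in the authors' deposited table were 14.5 RPKM with doxycycline and 17.4 RPKM without in I4 in experiment N (1.198-fold lower, q = 0.0084), and 19.6 against 24.5 RPKM in experiment B (1.25-fold lower, q = 0.000916). The H6 values of the authors' deposited table were 13.6 against 16.7 RPKM in experiment N (1.23-fold lower, q = 0.00174) and 16.4 against 20.8 RPKM in experiment B (1.27-fold lower, q = 0.00548). PRIM1 (ENSG00000198056) is on the minus strand of chromosome 12 (56731596 to 56752373). Its regulatory partner PRIM2 was called in none, with log2 folds between -0.11 and 0.14 in the authors' deposited table. POLA1, the catalytic subunit of polymerase alpha, was 1.203-fold lower in H6 in experiment N (q = 0.00319) and not called elsewhere in the authors' deposited table, and POLA2 was called in none.

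**Figure D2:**
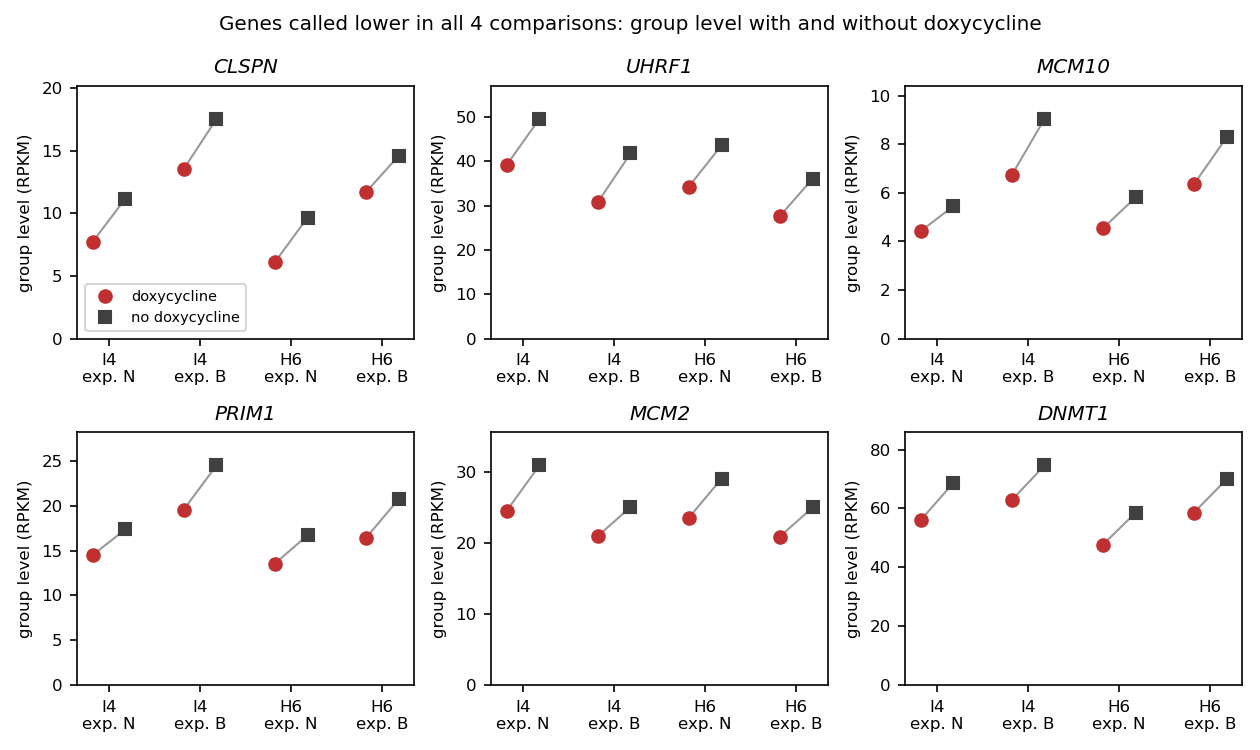
Group level in RPKM (vertical axis, from 0) of the 6 genes called lower in all 4 comparisons, with doxycycline (red circles) and without (dark squares), for each clone and experiment. There are no error bars because the table holds group values only, and the level with doxycycline is implied from the fold. Every red circle lies below its square, from 1.19-fold for DNMT1 and MCM2 to 1.59-fold for CLSPN.

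Among the 4 member genes of polymerases delta and epsilon, the calls fell on the catalytic subunits. POLD1, the catalytic subunit of polymerase delta, was 23.2 RPKM with doxycycline and 30.9 RPKM without in I4 in experiment N of the authors' deposited table (1.33-fold lower, q = 8.11e-08). In I4 in experiment B it was 11.7 against 13.5 RPKM in the authors' deposited table (q = 0.0582, not called). In H6 the authors' deposited table gives 18.6 against 25.7 RPKM in experiment N (1.38-fold lower, q = 2.08e-09) and 10.2 against 13.0 RPKM in experiment B (1.28-fold lower, q = 0.000952). POLE, the catalytic subunit of polymerase epsilon, was called lower in experiment N alone, by 1.17-fold in I4 and 1.146-fold in H6 in the authors' deposited table. The accessory subunit genes POLD3 and POLE2 were called in none, with folds of at most 1.07-fold and 1.11-fold in the authors' deposited table. Of the accessory subunit genes outside the members, POLD2 was called lower in 3 comparisons and POLE4 in 1. POLD4 was called higher in 2, and POLE3 was called in none. With these counted, the calls were not confined to catalytic subunits, and the difference between subunits was not tested.

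Among the 6 genes of the clamp and its loader a single call was made. PCNA, the sliding clamp, lay at 83.9 to 105.6 RPKM with doxycycline and 87.7 to 118.3 RPKM without in the authors' deposited table, its log2 folds ran from -0.16 to 0.01, and it was called in no comparison. Of the loader subunits, RFC2 alone was called, in I4 in experiment N, at 21.8 RPKM with doxycycline and 26.2 RPKM without in the authors' deposited table (1.203-fold lower, q = 0.00271). In the other comparisons of the authors' deposited table RFC2 had 27.5 against 29.8 RPKM (I4, experiment B), 22.7 against 24.4 RPKM (H6, experiment N) and 29.9 against 32.2 RPKM (H6, experiment B), 1.08-fold each. RFC3, RFC4 and RFC5 (10.6% of exon bases overlapped on the other strand) were called in none. RFC1, the large subunit, had log2 folds of 0.01 to 0.03 in the authors' deposited table.

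RPA1, RPA2 and RPA3, the trimer that coats single-stranded DNA, were called in no comparison. RPA2, which had the lowest mean fold of them, was 35.0 against 34.5 RPKM in I4 in experiment N, 37.4 against 40.6 RPKM in I4 in experiment B, 34.3 against 34.4 RPKM in H6 in experiment N and 38.1 against 42.2 RPKM in H6 in experiment B, all from the authors' deposited table. RPA3 had the highest single log2 fold of all 52 genes, 0.26 in I4 in experiment N of the authors' deposited table, with q = 0.102. Of the enzymes that finish Okazaki fragments, the flap nuclease FEN1 was called lower in I4 in experiment B, with 37.9 RPKM against 43.5 RPKM in the authors' deposited table (1.149-fold, q = 0.0442). FEN1 was not called in the other comparisons of the authors' deposited table, at 37.4 against 41.1 RPKM (I4, experiment N), 33.7 against 34.6 RPKM (H6, experiment N) and 35.5 against 38.2 RPKM (H6, experiment B). The ligase LIG1 was called in none.

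Nucleotide supply split by gene. RRM2, the regulated subunit of ribonucleotide reductase, was called lower in 3 comparisons: in the authors' deposited table it was 51.95 against 62.8 RPKM in I4 in experiment N (1.21-fold, q = 0.000882), 62.3 against 76.5 RPKM in I4 in experiment B (1.23-fold, q = 0.000297) and 46.99 against 55.2 RPKM in H6 in experiment N (1.17-fold, q = 0.0085). In H6 in experiment B it was 54.6 against 63.8 RPKM in the authors' deposited table (1.17-fold, q = 0.052). Processed copies of RRM2 are annotated in the genome (RRM2P2, RRM2P3 and RRM2P4) and can share its reads, as can copies of PCNA, RFC3, RFC5, RPA2, FEN1 and TYMS. RRM1, the large subunit, TYMS, which makes thymidylate, and TK1, which salvages thymidine, were called in none. The log2 folds of RRM1 lay between -0.05 and 0.01 in the authors' deposited table, and those of TYMS between -0.09 and 0.10. TYMS has 46.6% of its exon bases overlapped by ENOSF1 and TYMSOS on the other strand. TYMS, TK1 and PCNA had the highest levels of the 52 genes, with means of 131.5, 119.3 and 99.5 RPKM over the 4 untreated groups of the authors' deposited table.

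E2F1, the transcription factor that drives S phase genes, was itself called lower in 3 comparisons. E2F1 stood in the authors' deposited table at 28.8 RPKM with doxycycline and 36.4 RPKM without in I4 in experiment N (1.26-fold lower, q = 3.06e-05), 17.4 against 21.2 RPKM in I4 in experiment B (1.22-fold lower, q = 0.00264) and 28.2 against 35.2 RPKM in H6 in experiment N (1.25-fold lower, q = 0.000144). In H6 in experiment B the authors' deposited table has 18.9 against 21.7 RPKM (q = 0.182). E2F2 was called lower in I4 in experiment N (1.29-fold, q = 0.0202 in the authors' deposited table), and E2F8, a repressor of the family, in I4 in experiment B (1.23-fold, q = 0.00621). CCNE1, which encodes cyclin E1, had folds of 1.21 to 1.40 downward per the authors' deposited table but was called in I4 in experiment B alone (q = 0.0163), and CCNE2, with 37.1% of its exon bases overlapped on the other strand, in none. CCNE1 and E2F2 had the fewest reads of the 52 genes, about 120 and 181 per library at the lowest, so small differences in them are the least well measured.

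In chromatin assembly CHAF1A, the large subunit of the histone chaperone CAF-1, was called lower in experiment N alone. Its levels in the authors' deposited table were 13.0 against 16.2 RPKM in I4 (1.25-fold, q = 0.000143) and 12.9 against 15.6 RPKM in H6 (1.21-fold, q = 0.00203) there, and 12.7 against 14.3 RPKM in I4 and 13.5 against 14.9 RPKM in H6 in experiment B (q = 0.131 and 0.465). CHAF1B was called in none. SLBP, which binds the stem-loop of histone mRNA, was called in none either, with log2 folds of 0.15 and 0.13 in experiment N and -0.04 and -0.03 in experiment B, from the authors' deposited table, in I4 and H6.

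Calls were shared between the clones in part. In experiment N 12 of the 52 genes were called lower in both clones, 8 in I4 alone and 3 in H6 alone; of genes of at least 1 RPKM, 6.53% were called lower in both, 6.03% in I4 alone and 3.99% in H6 alone. In experiment B the counts were 8, 11 and 1, with backgrounds of 3.46%, 5.65% and 1.93%. In both experiments the count in H6 alone is near its background. Over both experiments of a clone, 12 were called lower in I4 (background 6.38%) and 7 in H6 (background 4.15%). Over the 52 genes the log2 folds of the clones had a Pearson r of 0.80 and a Spearman rho of 0.80 in experiment N, and of 0.67 and 0.61 in experiment B. Between experiments they were 0.54 and 0.57 in I4 and 0.69 and 0.74 in H6. These are descriptions over genes, and clones in 1 experiment share its library kit and sequencing centre. Differences between clones or between experiments could not be tested without values per library.

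**Figure D3:**
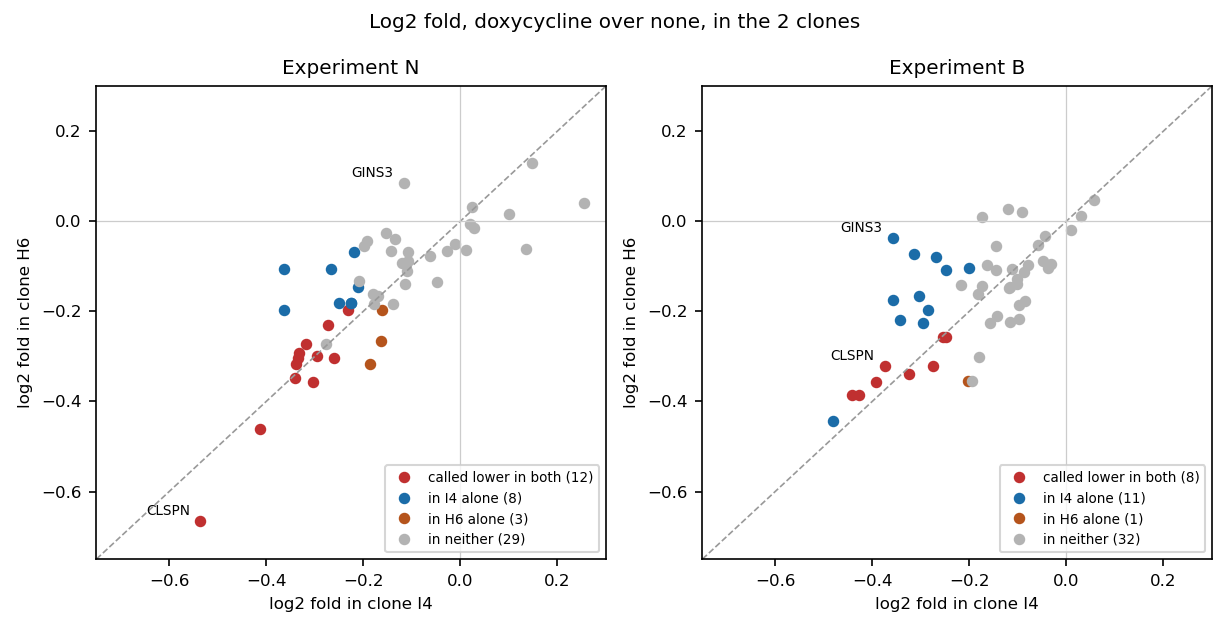
Log2 fold of the 52 genes in clone I4 (horizontal axis) against clone H6 (vertical axis), experiment N left and experiment B right, coloured by the clones in which the gene was called lower. The dashed line marks equal folds. Most points lie in the lower left part: 43 genes in experiment N and 46 in experiment B were negative in both clones. The share of all genes negative in both clones was not computed, so these counts have no background.

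Among 37 further replication factors, such as the origin subunits ORC2 to ORC5, the kinase CDC7 and the geminin gene GMNN, 11 (experiment N) and 7 (experiment B) were called lower in I4 and 10 (N) and 1 (B) in H6 of the authors' deposited table, and 1 or 2 higher in each. The lower calls make 29.7% (N) and 18.9% (B) for I4 and 27.0% (N) and 2.70% (B) for H6. Of genes of at least 1 RPKM, 12.5% (N) and 9.14% (B) were called lower in I4 and 10.5% (N) and 5.46% (B) in H6. The share called lower in H6 in experiment B was thus under its background. The higher calls make 5.41% (N) and 2.70% (B) for I4 and 5.41% (N) and 2.70% (B) for H6. For all genes of at least 1 RPKM the shares were 10.3% (N) and 10.3% (B) in I4, 9.87% (N) and 5.03% (B) in H6. The higher calls among these factors were thus under the background in each comparison. The median log2 fold of these further factors lay between -0.13 and -0.09, and none of them was called in all 4. Of 23 further genes of nucleotide synthesis, 4 (N) and 4 (B) were called lower in I4 and 5 (N) and 3 (B) in H6, while 1 (N) and 2 (B) were called higher in I4 and 1 (N) and 0 (B) in H6, with medians of -0.12 to -0.08. The lower calls make 17.4% and 17.4% for I4 and 21.7% and 13.0% for H6, against 12.5%, 9.14%, 10.5% and 5.46% of genes of at least 1 RPKM. The higher calls make 4.35% (N) and 8.70% (B) for I4 and 4.35% (N) and 0% (B) for H6. Each of these is under the share of all genes of that level called higher. TK2, a mitochondrial thymidine kinase, was called higher in 3 comparisons. CAD, which starts pyrimidine synthesis, and GART, a purine synthesis enzyme, were called lower in all 4: the authors' deposited table has CAD 1.21-fold to 1.27-fold lower and GART 1.22-fold to 1.33-fold lower.

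Among 32 further regulators of G1/S of at least 1 RPKM, the median log2 fold lay between -0.06 and 0.01 in the authors' deposited table. The calls went both ways: 4 (N) and 6 (B) of the 32 were called lower in I4 and 6 (N) and 1 (B) in H6, against 5 (N) and 3 (B) called higher in I4 and 4 (N) and 2 (B) in H6. As shares, 3.13% to 18.8% were called lower. This was at the background of 12.5% in I4 in experiment N and under that of 5.46% in H6 in experiment B. The shares called higher were 15.6% (N) and 9.38% (B) in I4 and 12.5% (N) and 6.25% (B) in H6. Of genes of at least 1 RPKM, 10.3% (N) and 10.3% (B) were called higher in I4 and 9.87% (N) and 5.03% (B) in H6. The share higher in I4 in experiment B was thus under its background. The CDK inhibitor genes CDKN1B (p27) and CDKN2C (p18) were called higher in all 4, while CDKN1A (p21), also a CDK inhibitor gene, was called lower in 3 comparisons. CDKN1B was 7.35 with and 6.11 RPKM without doxycycline (experiment N) and 6.11 against 4.70 RPKM (experiment B) in I4, and 6.87 against 5.64 RPKM (N) and 5.70 against 4.19 RPKM (B) in H6 of the authors' deposited table (1.203-fold to 1.36-fold higher, q from 0.00110 to 0.0104). CDKN2C was 26.7 against 19.5 RPKM (N) and 17.2 against 11.8 RPKM (B) in I4, and 24.97 against 17.99 RPKM (N) and 16.8 against 11.2 RPKM (B) in H6 in the authors' deposited table (1.37-fold to 1.498-fold higher, q at most 5.44e-09).

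The median of the 47 genes of G2/M and mitosis lay above 0 in each comparison, with 10 to 18 of the 47 at a negative fold. Those called higher in the authors' deposited table numbered 11 (experiment N) and 7 (experiment B) in I4 and 9 (N) and 1 (B) in H6, and 1 was called lower, in I4 in experiment B. As shares these are 23.4% (N) and 14.9% (B) in I4 and 19.1% (N) and 2.13% (B) in H6. Of all genes of at least 1 RPKM, 10.3% (N) and 10.3% (B) were called higher in I4 and 9.87% (N) and 5.03% (B) in H6. In H6 in experiment B the share of the mitotic genes thus lay below the background. The median log2 folds of the mitotic genes were 0.10 (N) and 0.07 (B) for I4, and 0.03 (N) and 0.05 (B) for H6, in the authors' deposited table. The replication genes and the mitotic genes therefore had medians of opposite sign in each comparison; the difference between the lists was given no test. These are bulk samples, in which fewer cells in a phase and less RNA per cell cannot be told apart.

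**Figure D4:**
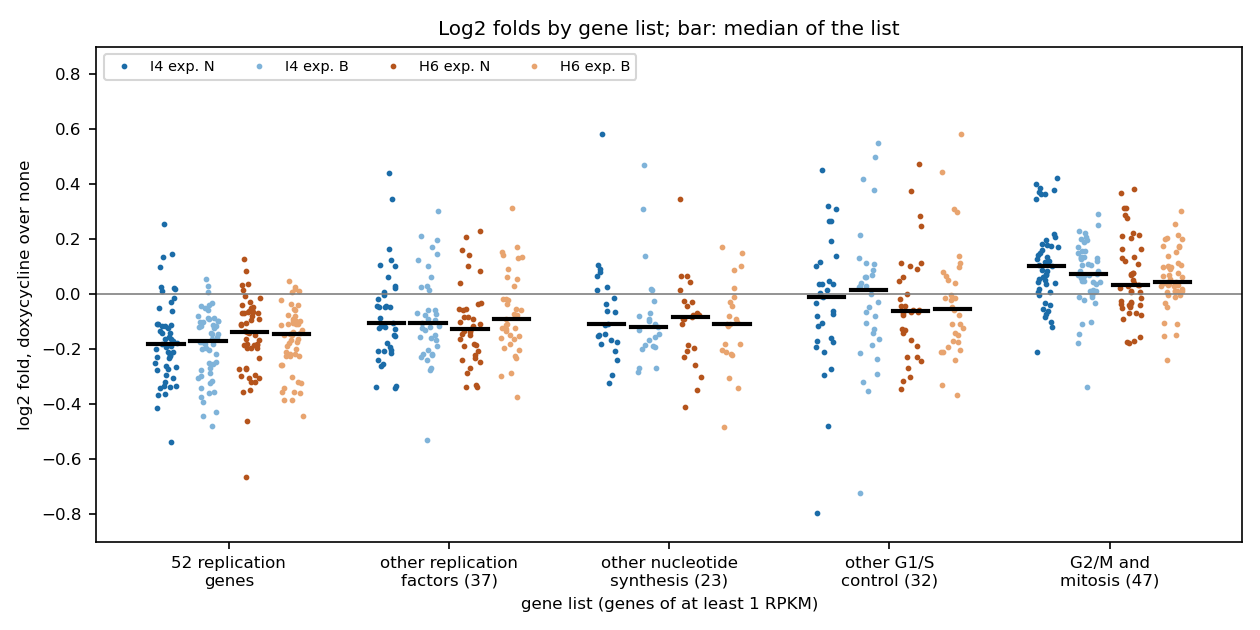
Log2 fold (vertical axis, doxycycline over none) of every gene of at least 1 RPKM in 5 gene lists (horizontal axis), coloured by comparison; black bars are list medians. The bars of the 52 replication genes lie between -0.18 and -0.14 and those of the G2/M and mitosis genes between 0.03 and 0.10.

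The E2F forms were common near the starts of the replication genes, called or not. A promoter entry was found for 44 of the 52 genes, with 56 windows of 250 bases before to 50 bases after a start. Of these windows 42.9% held at least 1 match to an E2F form on either strand, against 3.31% of all 35116 windows of the table and 5.10% of windows of genes of at least 1 RPKM. By gene, 23 of 44 had a match: 15 of the 27 called lower in at least 1 comparison and 8 of the 17 called in none. CCAAT boxes, matched by 5 letters, were in 57.1% of the windows, against 34.6% of all windows. Of 40 genes of the G2/M list with an entry, 3 had an E2F form (7.5%) and 32 a CCAAT box (80%). By gene, the background among genes of at least 1 RPKM in any comparison was 6.93% for an E2F form and 43.7% for a CCAAT box. The E2F share of the G2/M list was thus near its background, while that of the replication genes was 52.3%. A match is a description of these letters and not of a bound site.

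**Figure D5:**
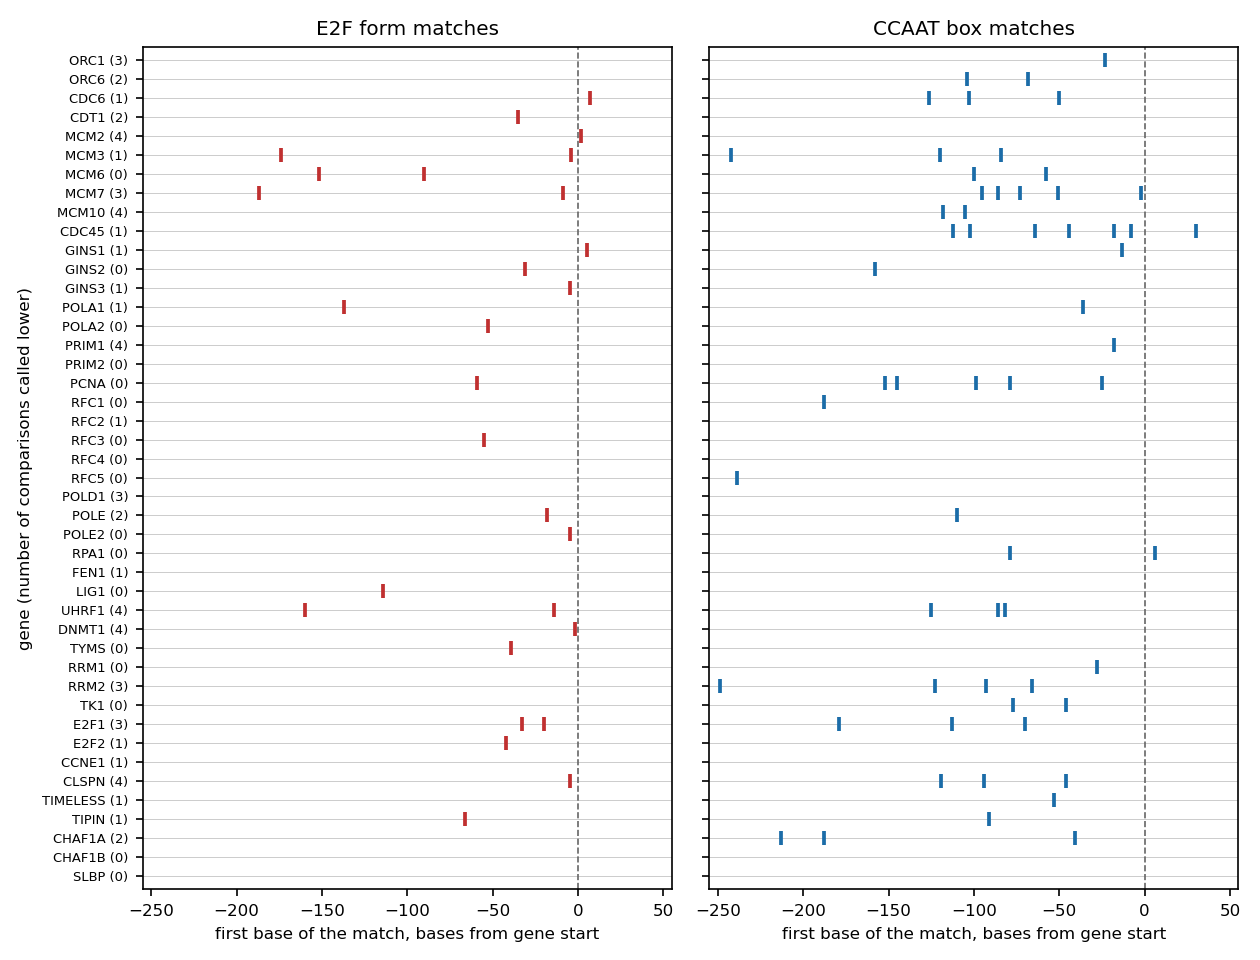
Position of E2F form matches (left) and CCAAT boxes (right) relative to the gene start at 0 (horizontal axis, in bases), for the 44 replication genes with a promoter entry (rows; the number of comparisons in which the gene was called lower is in parentheses). Genes with several listed starts show the matches of all their windows, each from its own start, and among the 6 genes called in all 4 comparisons an E2F form begins 5 bases before the start in CLSPN and 2 before it in DNMT1.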

How the data were processed

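Poly(A)-selected RNA of 23 PC-3 wells was sequenced, per the labels' protocols, and the build was hg38, per the submitters' processing notes. How reads were aligned, counted and tested was not stated in the labels. Per the file headers, the deposited table gives for each comparison the higher group mean, a fold and a q-value. The authors' level was read as RPKM from its values: columns sum to 283580 to 301832, and level times exon length falls on steps in genes of very low level, which also gave the depth. The authors' signed fold is not named with a unit and is treated as a score, never between -1 and 1. Each deposited q-value is an adjusted p whose method is not known here. Because the table used holds group values only, no model was fitted: genes were called at a deposited q under 0.05, adjusted over the whole table.

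Members and lists were chosen with earlier results of these data known. Values are given for members called in the same direction in all 4 or in 3 comparisons, and for the member with the largest absolute mean log2 fold in steps with none of these; the other members are described so that all 52 are accounted for, and which of their values to print was decided after the values were seen. The rule's names outside the list are PARG, cell markers and list genes called in all 4. TK2, CDKN1A, CDC25A, CDK2, CDK6, POLD2, POLD4, POLE3 and POLE4 were named after their values were seen. ORC2 to ORC5, CDC7 and GMNN were named only as examples of a list. Genes were placed with GENCODE release 29 (GRCh38). All 52 matched, and 27 rows named by dates were kept in the background. Promoter sequences are RefSeq's. Call counting was tested on simulated data. Calculations used Python 3.11.15, pandas 2.3.3 and matplotlib 3.10.9. Alternatives were other q limits (0.01 and 0.1), a minimum fold of 1.2, a minimum level of 5 RPKM, folds centred on the median of genes of at least 1 RPKM, and single clones or experiments.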

Additional observations from a re-analysis of the deposited data

How the results depend on the processing

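No paired analysis was possible because the deposited columns carry no replicate numbers and no values per library, and for the same reason no replicate could be left out. The number of members called lower in all 4 comparisons was 6; it was 3 with a fold of at least 1.2, 12 with experiment N only and 12 with clone I4 only, and between 4 and 9 under the other alternatives; fewer comparisons ask less of a gene by construction. With a fold of at least 1.2, 13 members were called lower in I4 in experiment N in place of 20, and with q under 0.1, 14 were called lower in H6 in experiment B in place of 9. The other counts stayed within 1.5 times, no member was called higher under any alternative run, and no called fold changed sign when centred on the median; of the uncalled folds of named members, that of RPA2 in H6 in experiment N did, at -0.0057 as deposited and 0.00013 when centred (log2). Depth limits CCNE1 and E2F2 most.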

Other observations

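Levels of the replication genes without doxycycline in H6 were below those in I4 in both experiments for 23 of the 52 genes and above them in both for 13, with a median ratio of 0.96 in each experiment. The same counts and ratio were not computed over all genes, so they have no background and are not read as a trait of these genes. POLE2, an accessory subunit of polymerase epsilon, was lower in H6 by the most, 1.40-fold in experiment N and 1.82-fold in experiment B, while CHAF1B was 1.26-fold and 1.35-fold and TK1 1.23-fold and 1.36-fold higher in H6. Between experiments, POLD1 in experiment B stood at 0.44 of its experiment N level in I4 and 0.51 in H6, and MCM10 at 1.66 and 1.43 of it. Clones and experiments were not tested, and kit, passage and sequencing centre of the experiments cannot be told apart.

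Among the further G1/S regulators, CDKN1A, CDC25A, CDK2 and CDK6 were named after their values were seen. Each was called lower in 3 of the 4 comparisons of the authors' deposited table and higher in none. They come from a list of 32 genes of at least 1 RPKM of which 4, 6, 6 and 1 were called lower and 5, 3, 4 and 2 higher in I4 (experiments N, B) and H6 (N, B), against 12.5%, 9.14%, 10.5% and 5.46% of all genes of that level called lower, so the list was lower at 12.5%, 18.8%, 18.8% and 3.13%. The CDK inhibitor gene CDKN1A (p21) was 1.26-fold to 1.73-fold lower, CDC25A, a phosphatase that activates CDK2, 1.18-fold to 1.28-fold, CDK2 1.16-fold to 1.23-fold and CDK6 1.151-fold to 1.39-fold lower, as ranges over all comparisons in the authors' deposited table.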
